A study of Mus musculus with 28 samples.

Results

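The plasminogen activator system and the trigger and brake of blood clotting were followed at the transcript level in healing mouse skin, through 7 genes taken from the table of raw gene counts by name: Plau, Plaur, Plat, Serpine2, Serpinb2, F3 and Thbd. They are 7 of 29068 genes in the table and all 7 were among the 18107 genes that passed the filter on low counts. The libraries came from whole skin of C57BL/6J mice under natural wound healing, 8 weeks old by the study's methods, with 4 libraries on each of Day0, Day3, Day5, Day7, Day10, Day12 and Day14, 28 in all. A round full-thickness wound was punched in the back, and the sample was the whole wound with its scab and its epithelial margin, and the groups are labelled by day of collection. The labels call the first group Day0 and the design text treats it as the control, whereas the paper counts the day of injury as the first of its collection days, so whether Day0 tissue had been wounded cannot be told apart from these sources. The labels do not say that the libraries of a day came from separate animals, and the spread between libraries may be partly technical. For single genes the main fit pools this spread over all 7 days, so its p-values do not measure that of the 2 days compared alone.

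Plasmin, the protease that dissolves fibrin, is cut from plasminogen by urokinase-type plasminogen activator (uPA, encoded by Plau) or tissue-type plasminogen activator (tPA, Plat). The receptor uPAR (Plaur) holds uPA on the cell surface, where migrating keratinocytes and leukocytes use it to clear provisional fibrin matrix. Protease nexin-1 (Serpine2) and plasminogen activator inhibitor type 2 (Serpinb2) are serpins that block these proteases, tissue factor (F3) is the cell surface protein that starts clotting with factor VII, and thrombomodulin (Thbd) binds thrombin on endothelium and keratinocytes and turns it toward protein C activation.

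On GRCm38, GENCODE places Plau on chromosome 14 (20836660 to 20843385, plus strand), Plaur on chromosome 7 (24462484 to 24475968, plus), Plat on chromosome 8 (22757727 to 22782844, plus) and F3 on chromosome 3 (121723537 to 121735048, plus). Thbd is a gene of 1 exon on chromosome 2 (148404466 to 148408188, minus). Serpine2 (79794197 to 79861180, minus) and Serpinb2 (107511423 to 107535478, plus) are both on chromosome 1. All 7 are annotated as protein coding, and only Serpinb2 shared exonic sequence with another annotated gene, 291 bases with Serpinb10 on the same strand, so reads there could have been counted for either.

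The RefSeq table of promoters, running from 250 bases before to 50 bases after a transcript start, held 4 of the 7 genes (Plaur, Serpinb2, F3 and Serpine2). All 4 are shown, and they were not picked by their course. Sequences are from GRCm38.p6 and are written 5′ to 3′ on the strand of the gene, Plaur at chr7:24462233-24462532 (plus), Serpinb2 at chr1:107511173-107511472 (plus, the first of 2 overlapping entries), F3 at chr3:121723287-121723586 (plus) and Serpine2 at chr1:79858616-79858915 (minus). Capitals mark matches, on either strand and with overlapping matches each counted, to the AP-1 consensus (TGACTCA, with any base allowed in the middle), a loose NF-kB type consensus, the core promoter element TATAAA, and the Sp1-type element GGGCGG.
Plaur: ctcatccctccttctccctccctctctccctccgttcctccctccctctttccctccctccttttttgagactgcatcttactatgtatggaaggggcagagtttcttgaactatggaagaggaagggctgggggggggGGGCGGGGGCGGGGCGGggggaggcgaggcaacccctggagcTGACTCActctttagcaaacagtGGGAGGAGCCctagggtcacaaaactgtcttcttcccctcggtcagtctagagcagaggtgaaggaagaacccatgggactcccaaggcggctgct
Serpinb2: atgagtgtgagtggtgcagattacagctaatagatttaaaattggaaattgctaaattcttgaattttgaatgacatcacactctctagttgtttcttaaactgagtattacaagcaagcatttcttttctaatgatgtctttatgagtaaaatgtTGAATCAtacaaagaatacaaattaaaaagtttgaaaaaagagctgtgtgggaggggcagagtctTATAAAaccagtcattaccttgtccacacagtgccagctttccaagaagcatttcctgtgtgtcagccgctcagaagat
F3: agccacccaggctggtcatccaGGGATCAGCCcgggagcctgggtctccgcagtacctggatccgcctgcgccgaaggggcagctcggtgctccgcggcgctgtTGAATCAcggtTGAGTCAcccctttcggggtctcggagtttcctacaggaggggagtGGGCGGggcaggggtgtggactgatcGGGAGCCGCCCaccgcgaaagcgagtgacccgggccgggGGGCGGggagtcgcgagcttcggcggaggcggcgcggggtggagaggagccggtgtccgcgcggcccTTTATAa
Serpine2: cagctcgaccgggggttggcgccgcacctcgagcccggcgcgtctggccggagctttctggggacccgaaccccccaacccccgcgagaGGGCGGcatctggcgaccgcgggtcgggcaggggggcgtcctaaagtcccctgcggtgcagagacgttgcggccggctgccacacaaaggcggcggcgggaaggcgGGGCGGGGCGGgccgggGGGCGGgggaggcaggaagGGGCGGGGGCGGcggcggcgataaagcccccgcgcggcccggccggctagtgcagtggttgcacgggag

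An AP-1 word was found once in the Plaur promoter, at -69 from the start, once in the Serpinb2 promoter, at -94, and at 2 places in the F3 promoter, at -146 and -135. Of 32851 promoters of this length, 7.81% held such a word. No AP-1 word was found in the Serpine2 window, which lies inside the gene as GENCODE places it, with its 5′ end at 79861180. What was found there describes the RefSeq start used here, not the 5′ end of the GENCODE gene. GGGCGG, present in 35.7% of promoters, was matched 6 times in the Serpine2 window, 3 times in each of the Plaur and F3 windows and nowhere in the Serpinb2 window. TATAAA, present in 13.6% of promoters, lay at -29 in the Serpinb2 promoter and downstream of the start, at 44 and on the opposite strand, in the F3 promoter. The NF-kB type consensus, present in 20.7%, was matched once in the Plaur window and 2 times in the F3 window. These are letter matches, and binding was not measured.

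Totals ran from 36706513 to 40655764 assigned counts per library, with a median of 39499595, and the lowest count of any of the 7 genes in any library was 251 (Plaur on Day0). The libraries of Day0 were the least alike: the common biological coefficient of variation was 26.4% on Day0 against 5.70% to 10.8% on the other days. In Day0 libraries 1 and 4 the summed FPKM (fragments per kilobase of transcript, scaled to the library total) of 6 fibroblast matrix markers was 5120 and 3050, against 11800 and 11400 in libraries 2 and 3, whereas 6 neutrophil markers summed to 54.9 and 63.6 against 19.5 and 16.5. Among the 7 genes, 6 had libraries 1 and 4 both on the same side of libraries 2 and 3, Plaur and Serpinb2 being higher in 1 and 4 and Plau, Plat, F3 and Thbd lower. Calls of the 7 genes against Day0 that turned without 1 pair or the other, an alternative chosen after seeing the data, are given beside the values they touch. The 6 comparisons with Day0 share the same 4 Day0 libraries. The main edgeR fit pools the spread of a gene over all 7 days, so its SE against Day0 can understate the Day0 spread. With the 8 libraries of the 2 days alone, the SE of the log2 fold change of Plaur on Day14 was 0.27 rather than 0.17. From Day7 to Day10 the SE for Plaur went the other way, 0.073 rather than 0.16.

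FPKM is per length, so levels can be set side by side between genes, but the order depends on the length used. The deposited FPKM corresponds to lengths of 2659 bases for Plat and 2555 for Serpine2, whereas the union of their annotated exons spans 6241 and 8287 bases. For Plau the lengths are 2510 and 2367. By the deposited FPKM, Serpinb2 had the highest mean level of the 7 genes on Day0 (41.2 FPKM ± 10.5, SD, n = 4), Day3 (111 ± 8.41) and Day5 (65.7 ± 6.85). On Day7 Plat was highest (42.3 ± 2.59), on Day10 Serpine2 (52.5 ± 2.57), and on Day12 and Day14 F3 (33.2 ± 2.48 and 26.9 ± 1.48). Plaur, lowest of the 7 on Day0 at 6.68 ± 2.90 FPKM, was next to the highest on Day3 and Day5 and lowest again on Day12 and Day14. Per base of all annotated exons, an alternative chosen after seeing the data, Serpinb2 was likewise highest on Day0, Day3 and Day5 and F3 on Day12 and Day14, but F3 was also highest on Day7 and Day10, and Serpine2 rather than Plaur was lowest on Day12. Differences of 1 gene between days do not depend on the length. The ratio of the highest to the lowest day mean was 13.3 for Serpinb2, 9.21 for Plaur, 3.83 for Serpine2, 2.94 for Plat, 2.70 for Thbd, 1.97 for Plau and 1.49 for F3.

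**Figure D1:**
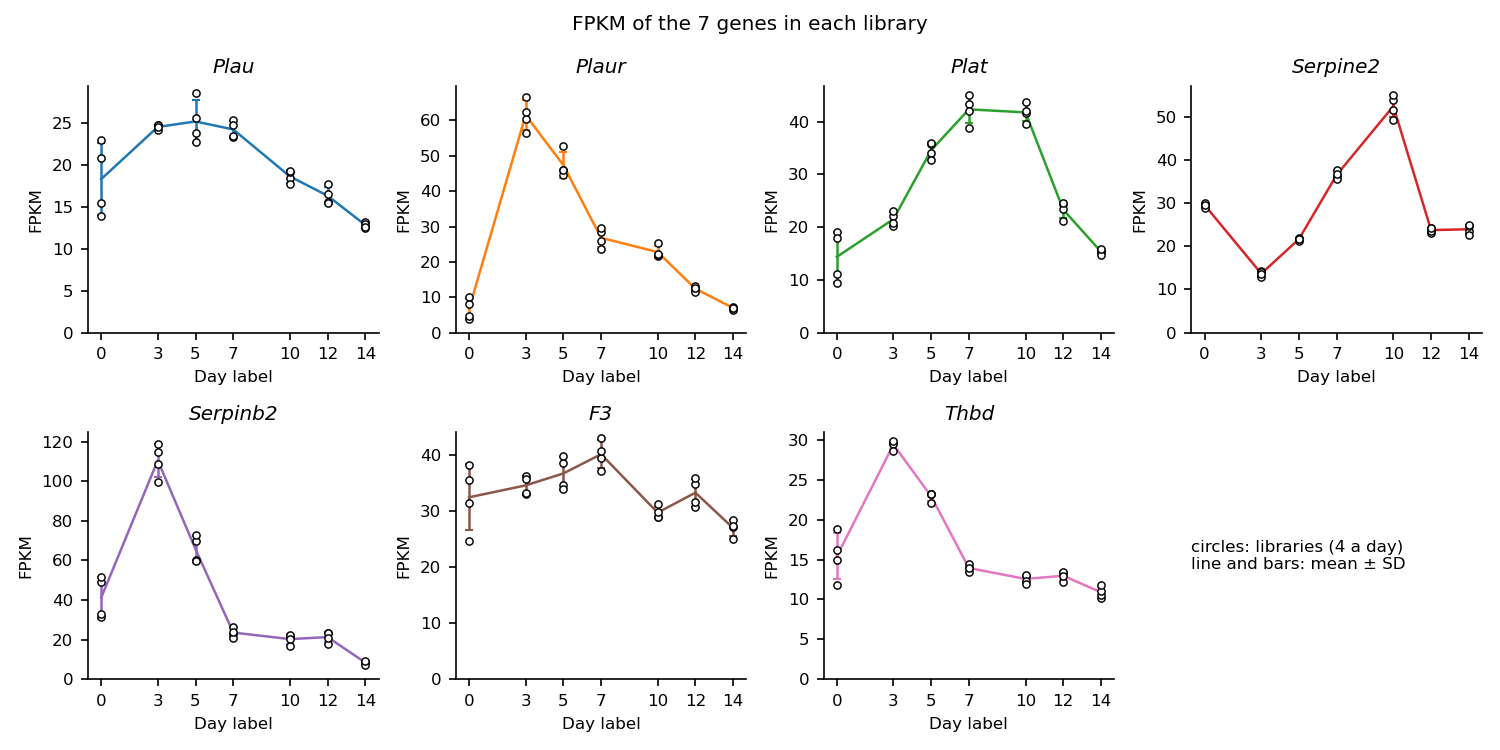
FPKM (vertical axes, each from 0 and with its own scale) of the 7 genes against the day label; circles are the 4 libraries of a day and the line with bars is the mean ± SD. Plaur, Serpinb2 and Thbd were highest on Day3, Plau on Day5, Plat and F3 on Day7 and Serpine2 on Day10, and the SD of FPKM was largest on Day0 for Plau, Plat, Serpinb2, F3 and Thbd but not for Plaur and Serpine2.

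Against Day0, 5 of the 7 genes were higher and 1 was lower on Day3, by edgeR's quasi-likelihood test at a Benjamini-Hochberg adjusted p under 0.05 over all genes. Over all 18107 genes, 31.8% were called higher and 34.8% lower on that day. On Day5 the counts were 6 higher and 1 lower (29.0% and 30.6% of all genes), and on Day7 they were 5 higher and 1 lower (25.6% and 24.8%). On Day10, 3 were higher and 2 lower (23.5% and 26.9%), and on Day12, 2 were higher and 4 lower (21.7% and 25.6%). On Day14 none was higher and 5 were lower (28.2% and 34.5%). With so many genes called, the counts of 7 genes carry little beyond the values of each gene. The median log2 fold change of the 7 genes was 0.64 on Day3, 0.61 on Day5, 0.31 on Day7, -0.028 on Day10, -0.31 on Day12 and -0.43 on Day14, while that of all genes lay between -0.056 and 0.0024.

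By the limits in the study's methods (log2 fold changes beyond 1.5 or -1.5, with unadjusted P under 0.05), 1 of the 7 genes passed on Day3 (Plaur, 18.9% of all genes passing), 1 on Day5 (Plaur, 13.9%), 2 on Day7 (Plaur and Plat, 9.40%), 1 on Day10 (Plaur, 9.47%), 0 on Day12 (7.39%) and 1 on Day14 (Serpinb2, 14.0%). On Day12, 6 of the 7 had an unadjusted p under 0.05 in edgeR, and DESeq2 and limma also left 0 past these limits. Values just inside and outside 1.5 moved these counts: Serpinb2 on Day3 stood at 1.48, Plat on Day7 at 1.55 and Plat on Day10 at 1.48, and 2 genes passed on Day3 when any of Day0 libraries 1 and 4 or Day3 libraries 1, 2 and 3 was left out. Only 1 passed on Day7 without Day0 library 1 or 4, and 2 passed on Day10 without Day0 library 2 or 3 or Day10 library 4.

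**Figure D2:**
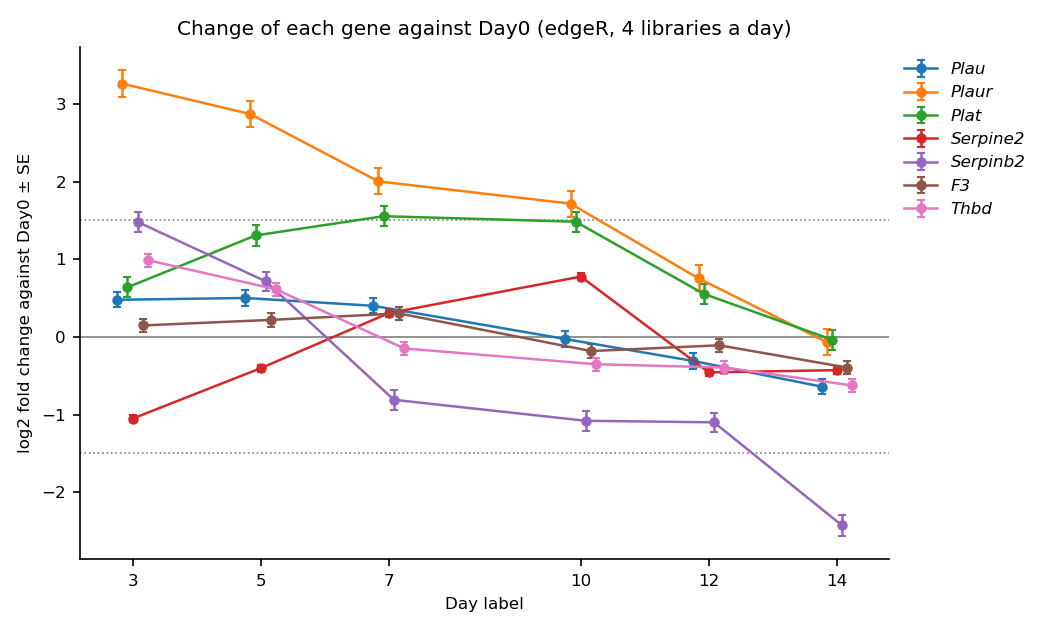
log2 fold change against Day0 (vertical axis) of the 7 genes on each later day label, with bars for ± SE from edgeR (4 libraries a day, all comparisons sharing the Day0 libraries); dotted lines stand at 1.5 and -1.5. Plaur starts at 3.26 on Day3 and ends at -0.067 on Day14, Serpinb2 goes from 1.48 to -2.43, and Serpine2 is below 0 on Day3 and above 0 on Day7 and Day10.

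Of the activators and their receptor, Plaur had the largest increase. Its FPKM in the 4 Day0 libraries was 10.1, 3.98, 4.60 and 8.02, and on Day3 it was 56.5, 60.4, 62.5 and 66.6. On Day5 the libraries read 46.1, 44.7, 46.0 and 52.7 and on Day7 25.8, 28.4, 23.5 and 29.5. Every library of Day3, Day5 and Day7 was above every Day0 library, and Day3, Day5 and Day7 did not overlap one another. The later libraries gave 21.7, 22.0, 25.3 and 22.1 on Day10, 13.3, 12.2, 11.6 and 12.5 on Day12 and 6.52, 7.17, 7.07 and 7.07 on Day14. Day7 and Day10 overlapped, Day10 and Day12 did not, and the Day14 libraries lay inside the Day0 range. Plaur rose 9.58-fold on Day3 (log2 fold change 3.26, SE 0.17, edgeR adjusted p = 2.0e-15), 7.30-fold on Day5 (adjusted p = 4.1e-14), 4.01-fold on Day7 (adjusted p = 7.8e-11), 3.29-fold on Day10 (adjusted p = 1.9e-09) and 1.68-fold on Day12 (adjusted p = 0.00054). All 5 calls held without either pair of Day0 libraries, but the log2 fold change on Day3 was 3.91 without libraries 1 and 4 and 2.86 without libraries 2 and 3, and that on Day12 was 1.40 and 0.32. On Day14 the log2 fold change was -0.067 (SE 0.17, adjusted p = 0.75), and this value turned with the Day0 libraries used: without libraries 1 and 4 Plaur was higher on Day14 (0.58, adjusted p = 4.3e-05) and without libraries 2 and 3 lower (-0.44, adjusted p = 0.00096).

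Plat had its highest mean later than Plaur, on Day7 against Day3. Its 4 Day0 libraries read 11.2, 19.0, 17.9 and 9.38 FPKM, its Day3 libraries 20.2, 22.1, 20.8 and 23.0 and its Day5 libraries 35.8, 35.9, 34.0 and 32.7. On Day7 they read 43.4, 45.0, 42.1 and 38.9 and on Day10 41.7, 43.8, 42.0 and 39.6. Day7 and Day10 overlapped each other and stood above all other days. The level was 24.3, 21.1, 23.4 and 24.5 on Day12, overlapping Day3, and 15.7, 15.2, 14.7 and 15.8 on Day14, inside the Day0 range. Against Day0 the rise in Plat, the gene of tPA, was 1.56-fold on Day3 (log2 0.64, SE 0.13, edgeR adjusted p = 1.0e-04), 2.47-fold on Day5 (adjusted p = 1.4e-09), 2.94-fold on Day7 (log2 1.55, SE 0.13, adjusted p = 9.2e-11), 2.80-fold on Day10 (adjusted p = 3.2e-10) and 1.47-fold on Day12 (adjusted p = 0.00089). When only the 8 libraries of Day12 and Day0 were fitted, the Day12 log2 fold change stayed at 0.55 while its SE went from 0.13 to 0.22, and the call was lost (adjusted p = 0.073). On Day14 the log2 fold change was -0.036 (adjusted p = 0.83). It became -0.39 (adjusted p = 1.9e-05) without Day0 libraries 1 and 4 and 0.52 (adjusted p = 2.5e-06) without libraries 2 and 3.

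Plau, the gene of uPA, moved over a narrow range. Its Day0 libraries read 15.5, 23.0, 20.8 and 13.9 FPKM. All 12 libraries of Day3, Day5 and Day7 lay between 22.7 and 28.6, and those of Day10 between 17.7 and 19.3, of Day12 between 15.5 and 17.7 and of Day14 between 12.5 and 13.2. The highest Day0 library overlapped Day5, and every Day14 library was below every Day0 library. Plau rose 1.39-fold on Day3 (edgeR adjusted p = 0.00012), 1.41-fold on Day5 (adjusted p = 8.3e-05) and 1.32-fold on Day7 (adjusted p = 0.0013), and on Day14 it was at 64.1% of Day0 (log2 fold change -0.64, SE 0.10, adjusted p = 3.1e-06). The Day7 call was lost without Day0 libraries 1 and 4 (log2 fold change 0.15, adjusted p = 0.10) and with the 8 libraries of the 2 days alone (0.36, adjusted p = 0.089). On Day10 the log2 fold change of Plau was -0.028 (adjusted p = 0.83), and it was called lower without Day0 libraries 1 and 4 (-0.28, adjusted p = 0.0020) and higher without libraries 2 and 3 (0.28, adjusted p = 0.0036). On Day12 Plau was called lower (-0.31, adjusted p = 0.011), a call lost without Day0 library 2 (-0.18, adjusted p = 0.11) or library 3 (-0.24, adjusted p = 0.059), and turned to 0.015 without both of them (adjusted p = 0.90). It was also lost with no composition scaling (-0.17, adjusted p = 0.16), in 3 limma settings on FPKM (-0.13 to -0.14, adjusted p = 0.24 to 0.35) and with the 8 libraries alone (adjusted p = 0.14).

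Because both activators were measured in the same library, their ratio is free of library size. The FPKM ratio of Plau to Plat was 1.38, 1.21, 1.16 and 1.48 in the Day0 libraries and 1.2, 1.12, 1.19 and 1.06 on Day3, all 8 above 1. On Day7 it was 0.537, 0.565, 0.558 and 0.635, on Day10 between 0.436 and 0.461 and on Day14 0.841, 0.858, 0.847 and 0.801. By the deposited FPKM Plat exceeded Plau in all 20 libraries from Day5 on, but per base of all annotated exons the ratio ran from 1.09 to 3.69 over the 28 libraries, so which of the 2 was the more abundant from Day5 on depends on the length used. The change of the ratio between days does not. The log2 ratio of the counts fell by 1.19 from Day0 to Day7 (SE 0.098) and was lower by 0.64 on Day14 (SE 0.086), each with an exact two-sided permutation p of 0.0286, the smallest that 4 against 4 allows, and an adjusted p of 0.0429 over 6 such tests. On Day3 the difference was -0.19 (SE 0.092, exact p = 0.114), with an adjusted p of 0.0343 when Day0 library 3 was left out, log2 difference -0.25.

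**Figure D3:**
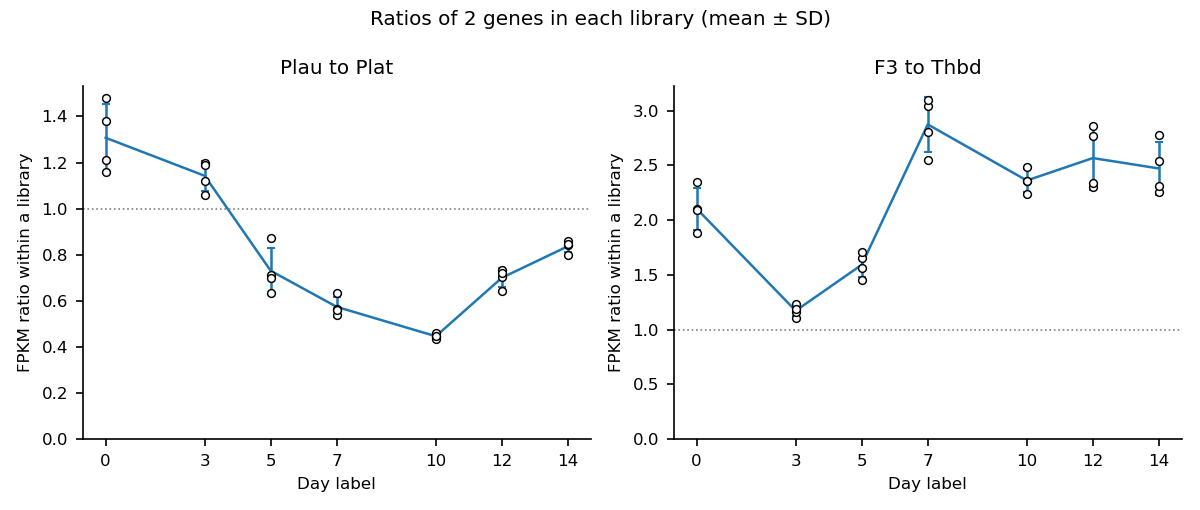
FPKM ratio within each library of Plau to Plat (left) and F3 to Thbd (right) against the day label, circles for the 4 libraries, line and bars for mean ± SD, and a dotted line at 1. The lengths behind the deposited FPKM set the scale of each ratio, and per base of all annotated exons Plau to Plat stays above 1 in every library. Plau to Plat has its highest mean, 1.31, on Day0 and its lowest, 0.446, on Day10; F3 to Thbd has its lowest mean, 1.17, on Day3 and its highest, 2.87, on Day7.

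The 2 inhibitor genes went in different directions on Day3. Serpinb2, the gene of an inhibitor of uPA that is largely kept inside keratinocytes and macrophages, read 48.9, 31.4, 32.8 and 51.6 FPKM on Day0 and 115, 109, 99.5 and 119 on Day3. On Day5 it was 70, 60.1, 73.0 and 59.6 and on Day7 23.0, 26.5, 21.0 and 23.6. Day3 and Day5 were above and Day7 was below every Day0 library. The libraries of Day10 read 21.4, 22.3, 16.9 and 20.3, those of Day12 17.8, 23.2, 23.3 and 20.6, and those of Day14 8.46, 8.74, 7.16 and 9.09. Day7, Day10 and Day12 overlapped, and Day14 lay below them all. Serpinb2 rose 2.79-fold on Day3 (log2 fold change 1.48, SE 0.13, edgeR adjusted p = 4.0e-11) and 1.64-fold on Day5 (adjusted p = 1.6e-05). It was then lower than on Day0, at 57.0% on Day7 (adjusted p = 4.4e-06), 47.3% on Day10 (adjusted p = 4.8e-08), 46.6% on Day12 (adjusted p = 4.8e-08) and 18.6% on Day14 (log2 fold change -2.43, SE 0.13, adjusted p = 1.2e-14).

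Serpine2, the gene of protease nexin-1, an inhibitor of thrombin, uPA and tPA, was the member whose Day0 libraries agreed best, at 29.7, 30, 29.0 and 29.6 FPKM. It was 14.2, 13, 14.0 and 13.5 on Day3, 21.3, 22.0, 21.7 and 21.8 on Day5, and 36.3, 37.7, 35.7 and 36.7 on Day7. These 4 days did not overlap at all. On Day10 the libraries read 54.0, 51.6, 55.1 and 49.4, the highest of the course, before 23.1, 24.2, 23.5 and 24.3 on Day12 and 23.5, 22.7, 24.8 and 24.9 on Day14. Day12 and Day14 overlapped, and both were below Day0. Serpine2 fell to 48.2% of Day0 on Day3 (log2 fold change -1.05, SE 0.048, edgeR adjusted p = 9.7e-17) and was at 75.6% on Day5 (adjusted p = 3.0e-08). It rose 1.24-fold on Day7 (adjusted p = 4.4e-06) and 1.71-fold on Day10 (adjusted p = 1.9e-13), and was at 72.8% on Day12 (adjusted p = 8.9e-09) and 74.3% on Day14 (adjusted p = 9.9e-09). Leaving out any 1 library, or either pair of Day0 libraries, changed none of these 6 calls.

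Thbd and F3, on opposite sides of the clotting reaction, differed in how much they moved. Thbd read 14.9, 18.8, 16.2 and 11.8 FPKM on Day0, 29.7, 29.5, 28.7 and 29.9 on Day3, and 23.2, 22.1, 23.3 and 23.2 on Day5. Both of these days were above every Day0 library. It then read 14.0, 13.4, 14.5 and 13.9 on Day7, 12.9, 13.1, 12.3 and 12.0 on Day10, 13.3, 12.2, 13.5 and 12.9 on Day12 and 10.2, 10.6, 11 and 11.8 on Day14. The libraries of Day7, Day10 and Day12 lay inside the Day0 range, and those of Day14 at its lower edge or below it. Thbd rose 1.98-fold on Day3 (log2 fold change 0.99, SE 0.081, edgeR adjusted p = 2.2e-11) and 1.53-fold on Day5 (adjusted p = 2.4e-07). On Day7 the log2 fold change was -0.15 (adjusted p = 0.13), which was -0.26 and called without Day0 library 4 (adjusted p = 0.001), -0.33 (adjusted p = 9.1e-05) without Day0 libraries 1 and 4, and 0.055 without libraries 2 and 3. Thbd was lower on Day10 (78.3% of Day0, adjusted p = 0.00068), Day12 (76.1%, adjusted p = 0.00024) and Day14 (64.8%, adjusted p = 1.8e-07). The Day10 call was lost without Day0 libraries 2 and 3 (log2 fold change -0.15, adjusted p = 0.096) and with the 8 libraries alone (-0.34, adjusted p = 0.058).

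F3 read 31.3, 35.4, 38.2 and 24.6 FPKM on Day0, and its libraries lay between 32.9 and 36.2 on Day3, 33.9 and 39.7 on Day5, 37.1 and 43.0 on Day7, 28.9 and 31.1 on Day10, 30.6 and 35.8 on Day12 and 24.9 and 28.4 on Day14. Each of these ranges overlapped that of Day0. F3 was 1.23-fold higher on Day7 (log2 fold change 0.30, SE 0.087, edgeR adjusted p = 0.0049) and at 76.0% of Day0 on Day14 (-0.40, SE 0.087, adjusted p = 0.00029). The Day7 call was lost without Day0 libraries 1 and 4 (0.12, adjusted p = 0.17) and with the 8 libraries alone (0.27, adjusted p = 0.13), and the Day14 call without libraries 2 and 3 (-0.11, adjusted p = 0.28). The Day5 call (1.16-fold, log2 fold change 0.22, adjusted p = 0.032) was lost without Day0 library 1 (0.22, adjusted p = 0.050) or 4 (0.12, adjusted p = 0.15). It was lost, too, without Day5 library 1 (0.20, adjusted p = 0.081) or 4 (0.17, adjusted p = 0.11). Without Day0 libraries 1 and 4 together the log2 fold change was 0.041 (adjusted p = 0.66). At log2 fold changes of 0.16 to 0.21, the Day5 call was also lost in other settings. These were upper quartile factors (adjusted p = 0.14), no composition scaling (0.085), no filter on low counts (0.062), 3 limma settings (0.062 to 0.11) and the 8 libraries alone (0.26). On Day3, Day10 and Day12 the log2 fold changes were 0.15, -0.18 and -0.11 (adjusted p = 0.14, 0.082 and 0.32). Without Day0 library 4 F3 was called lower on Day10 (-0.29, adjusted p = 0.0012) and Day12 (-0.20, adjusted p = 0.021), and without Day0 library 3 or Day3 library 1 it was called higher on Day3 (0.24, adjusted p = 0.018, and 0.22, adjusted p = 0.042). Without libraries 1 and 4 together F3 was lower on Day10 (-0.36, adjusted p = 1.0e-04) and Day12 (-0.29, adjusted p = 0.0015), and without libraries 2 and 3 it was higher on Day3 (0.40, adjusted p = 0.00021). With Xist as covariate it was called lower on Day10 (-0.21, adjusted p = 0.042).

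The FPKM ratio of F3 to Thbd was 2.10, 1.88, 2.35 and 2.09 in the Day0 libraries, 1.11, 1.23, 1.16 and 1.19 on Day3 and 2.81, 3.04, 2.55 and 3.10 on Day7. Day3 lay below and Day7 above every Day0 library, while the means of Day5, Day10, Day12 and Day14 were 1.60, 2.36, 2.57 and 2.47. The log2 ratio of the counts was lower by 0.84 on Day3 (SE 0.073) and higher by 0.45 on Day7 (SE 0.092), each with an exact two-sided permutation p of 0.0286 and an adjusted p of 0.0429. On Day14 the difference was 0.23 (SE 0.095, exact p = 0.0857, adjusted p = 0.103).

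Comparisons among the wound days use no Day0 mean, although the Day0 libraries enter the estimate of the spread in the fit of all 28 libraries. In the joint edgeR test over Day3 to Day14 all 7 genes passed, as did 85.1% of all genes, with F from 18.8 for F3 to 387 for Serpine2. From Day3 to Day5, 4 of the 7 changed (24.3% of all genes): Plat and Serpine2 rose (1.59-fold and 1.57-fold) and Serpinb2 and Thbd fell, to 58.8% and 77.1%. Plaur was at 76.2% (adjusted p = 0.063), and passed without Day3 library 1 (adjusted p = 0.042) or Day5 library 4 (adjusted p = 0.045), in DESeq2 (adjusted p = 0.042) and with the 8 libraries of the 2 days alone (adjusted p = 0.0011). From Day5 to Day7, 4 changed (28.5%): Serpine2 rose 1.64-fold, and Plaur, Serpinb2 and Thbd fell to 54.8%, 34.8% and 59.0%. Plat, at 119% of Day5 (adjusted p = 0.15), passed with the 8 libraries alone (adjusted p = 0.0072). From Day7 to Day10, 3 changed (32.3%): Serpine2 rose 1.39-fold, and Plau and F3 fell to 74.3% and 71.5%. With the 8 libraries alone, Plaur, Serpinb2 and Thbd passed as well, all lower (adjusted p = 0.0046, 0.0096 and 0.0053, against 0.17, 0.10 and 0.057 over all libraries), and Thbd also passed with Xist as covariate (adjusted p = 0.028) or a minimum of 10 counts in every library (adjusted p = 0.049).

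The later steps were mostly downward. From Day10 to Day12, 4 of the 7 changed (39.4% of all genes), all lower, with Serpine2 at 42.5% (edgeR adjusted p = 9.2e-17), Plaur at 51.2%, Plat at 52.5% and Plau at 82.2%. The call on Plau (adjusted p = 0.024) was lost without Day10 library 2 (adjusted p = 0.065) or 3 (adjusted p = 0.076), or Day12 library 1 (adjusted p = 0.055) or 2 (adjusted p = 0.071). It was also lost with Xist as covariate (0.062), no composition scaling (0.12) and 3 limma settings (0.11 to 0.19). From Day12 to Day14, 6 changed (45.2%), again all lower: Serpinb2 to 39.8%, Plaur to 56.7%, Plat to 66.5%, Plau to 79.6%, F3 to 82.0% and Thbd to 85.2%. The call on Thbd (adjusted p = 0.023) was lost without Day12 library 1 (adjusted p = 0.078) or 3 (adjusted p = 0.071), or Day14 library 1 (adjusted p = 0.075) or 2 (adjusted p = 0.066). It was also lost in DESeq2 (0.053), with RLE size factors (0.055), upper quartile factors (0.077) and no filter on low counts (0.070). Serpine2, at 102% of Day12 (adjusted p = 0.64), was the exception.

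The 7 genes also differed in which other genes had the most similar course. Over the 28 libraries, among 10736 genes with a mean CPM (count scaled to the library total) of at least 10, the highest Pearson correlations of log2 CPM with Plaur were those of Pla2g7 (r = 0.991), Ripk3 (0.988) and Timp1 (0.988). Those with Plat were Maged2 (0.980), Col5a2 (0.976), a fibrillar collagen gene, and Bmp1 (0.972), which encodes the procollagen C-proteinase. Plau had Mmp9 (0.966), the gene of a gelatinase, Rap1a (0.964) and Snx9 (0.962). For Serpinb2 they were Susd6 (0.978), Stk40 (0.972) and Dusp1 (0.972), and for Thbd Ackr3 (0.988), Uap1 (0.983) and Ifitm2 (0.981). Serpine2 and F3 had lower maxima, with Itm2a (0.930), H19 (0.928) and Mamdc2 (0.920) for Serpine2 and Snx9 (0.924), Medag (0.912) and Rp2 (0.910) for F3. The 28 points share the days and the Day0 libraries, and the values describe likeness over this course. Between members, Serpinb2 and Thbd were the most alike (r = 0.922, n = 28 libraries), and Serpine2 and Thbd the least (-0.534).

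Of a list of 38 other genes of plasmin formation, clotting and thrombin signalling, 24 passed the filter on low counts. Against Day0, 10 were higher and 8 lower on Day3, 11 and 6 on Day5, 11 and 4 on Day7, 10 and 9 on Day10, 6 and 9 on Day12 and 8 and 11 on Day14, beside the shares of all genes given above. The median log2 fold change of the 24 ran from -0.11 on Day10 to 0.32 on Day5. The other 14, among them Plg, F2, Fga, Fgb and Fgg, which the liver makes for plasma, had at most 17 counts in any library, so the substrate of the activators and the fibrin precursor chains were hardly detected as skin transcripts.

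Among the 9 tested genes of plasmin formation and control, Eno1, whose product is a glycolytic enzyme that can also bind plasminogen, had the largest increase among the called genes on Day3 (log2 fold change 2.02, SE 0.069) and Day7 (1.24, SE 0.067). Here and in the groups that follow, the largest change means the largest among genes that passed the test. The largest decrease on Day3 was in Serpinf2, the gene of the plasmin inhibitor alpha-2-antiplasmin (-1.82, SE 0.48), from 14 to 34 counts to 5 to 11 counts. On Day7 it was in Vtn (-0.66, SE 0.12), the gene of vitronectin, a ligand of uPAR. On Day14 Serpini1, the gene of neuroserpin, an inhibitor of tPA, had the largest increase (0.94, SE 0.23; 64 to 96 counts) and Serping1, the gene of C1 inhibitor, the largest decrease (-1.73, SE 0.18). The value for Serping1 was -0.96 without Day0 libraries 2 and 3 and that for Serpini1 was 1.41 without libraries 1 and 4, and both remained called.

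Among the 9 tested clotting factors and their brakes, F10, the gene of the factor that tissue factor and factor VII activate, was 9.68-fold higher on Day3 (log2 fold change 3.28, SE 0.22, edgeR adjusted p = 4.6e-13), with 56 to 201 counts on Day0 and 954 to 1198 on Day3. Without Day0 libraries 1 and 4 the log2 fold change was 4.10. Serpind1, the gene of heparin cofactor II, had the largest decrease (-0.86, SE 0.36, adjusted p = 0.036) on 11 to 33 counts. Its call was lost when any 1 of the 4 Day0 libraries was left out (log2 fold changes -0.82, -0.85, -0.79 and -0.86, adjusted p = 0.067, 0.056, 0.077 and 0.052). The same held for Day3 libraries 1, 3 and 4 (-0.89, -0.68 and -0.68, adjusted p = 0.054, 0.13 and 0.13) and with no filter on low counts (-0.87, adjusted p = 0.05). On Day7 the largest increase was in Tfpi2 (2.70, SE 0.13; 94 to 144 counts on Day0 and 776 to 901 on Day7), the gene of an inhibitor of plasmin and of factor VII with tissue factor, and no gene of the 9 was called lower. On Day14 it was in F7 (2.79, SE 0.42), the gene of the partner of tissue factor, with 0 to 84 counts on Day0 and 214 to 269 on Day14. That value was 3.90 without Day0 library 1, 5.68 without libraries 1 and 4 and 1.94 without libraries 2 and 3. F13a1, the gene of the fibrin-crosslinking factor XIII A chain, made by macrophages and platelet precursors, had the largest decrease (-2.80, SE 0.22), which was -1.85 without Day0 libraries 2 and 3.

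Among the 6 tested thrombin receptors and protein C pathway genes, F2rl3, the gene of the thrombin receptor PAR4, had the largest increase on Day3 (1.23, SE 0.41) and Day7 (1.71, SE 0.40), on at most 74 counts. F2rl2, the gene of PAR3, had the largest decrease on Day7 and Day14 (-1.28 and -2.06, SE 0.26 and 0.27). On Day3 F2rl2 (-1.0, SE 0.26) and F2rl1, the gene of PAR2 (-0.99, SE 0.11), were lower by about the same amount, and the F2rl2 Day3 call was lost without Day0 libraries 2 and 3 (-0.33, adjusted p = 0.29), while the Day7 and Day14 values of F2rl2 became -0.66 and -1.36 and stayed called. Procr, the gene of the endothelial protein C receptor, which presents protein C to the complex of thrombin and thrombomodulin, had the largest increase on Day14 (1.38, SE 0.13), a day on which Thbd was lower than on Day0.

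**Figure D4:**
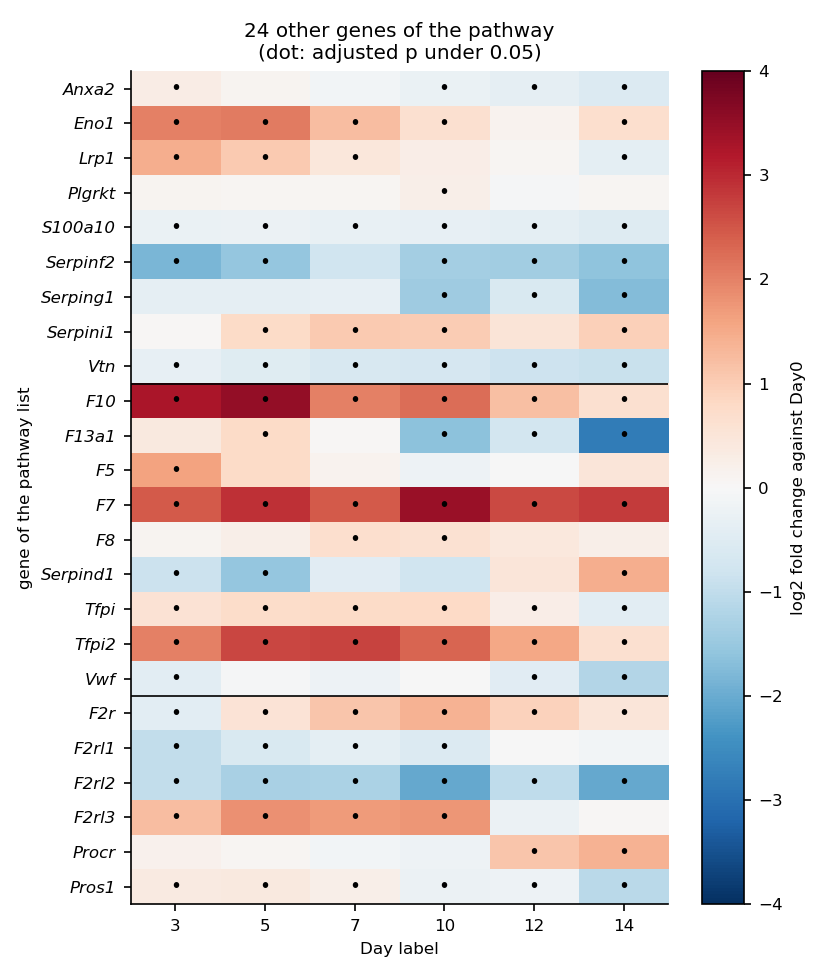
log2 fold change against Day0 (colour, red higher and blue lower) of the 24 tested genes of the pathway list (rows, lines separating plasmin formation, clotting factors and thrombin receptors with protein C) on each day label, with a dot where the edgeR adjusted p is under 0.05. F10, Tfpi2 and F7 are higher on all 6 days, and F2rl2, Vtn and S100a10 are lower on all 6.

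In bulk tissue fewer cells of a type and less RNA per cell cannot be told apart, and the makeup of the wound changed over the same days. The 6 neutrophil markers summed to 16.5 to 63.6 FPKM on Day0 and 7630 to 9740 on Day3, fell to 2690 to 3500 on Day5 and 435 to 492 on Day10, and all 6 were called higher on Day3 to Day10. Ly6g, a defining neutrophil marker, had 0 counts in all libraries of Day0 and of Day12. Macrophage markers (6 genes) summed to 1070 to 1670 on Day0, 2930 to 3080 on Day3 and 648 to 733 on Day14, with 6 called higher on Day3 and 6 lower on Day14. The part of these cells in the rise and fall of Plaur, Serpinb2 and Plau was not tested.

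Endothelial markers (6 genes), beside Thbd and Plat, summed to 114 to 154 FPKM on Day0, 210 to 226 on Day3 and 187 to 212 on Day10, with 5 called higher on Day3 and 4 on Day10, whereas Thbd was higher on Day3 and lower on Day10. The fibroblast matrix markers, beside Serpine2 and Plat, summed to 4290 to 4920 on Day3, 10500 to 11500 on Day10, 8890 to 10000 on Day12 and 3550 to 4000 on Day14, with 4 of 6 called lower on Day3 and 4 higher on Day10. Serpine2 fell to 42.5% between Day10 and Day12, days whose summed matrix markers did not overlap either. From Day12 to Day14, when these sums fell further, Serpine2 stood at 102% (edgeR adjusted p = 0.64). Wound edge keratins (4 genes), beside Serpinb2 and F3, summed to 273 to 402 on Day0, 1200 to 1490 on Day3 and 1000 to 1140 on Day14, when Serpinb2 was at its lowest, with 3 of 4 called higher on Day3 (median log2 fold change 3.90) and 2 of 4 on Day14 (median 0.52). The 6 other keratinocyte markers summed to 2130 to 4090 on Day0 and 1700 to 2170 on Day3. Hair follicle markers (5 genes) ranged from 1.41 to 4.08 on Day3 to 1690 to 2280 on Day12, skeletal muscle markers (5 genes) were called lower on all 6 days, and adipocyte markers (5 genes) summed to 1830 to 2490 on Day0 and 4010 to 4990 on Day3, though only 1 of the 5 was called higher on Day3 and 2 were lower, with a median log2 fold change of -0.11. The part of these changes in the values of the 7 genes was not tested.

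**Figure D5:**
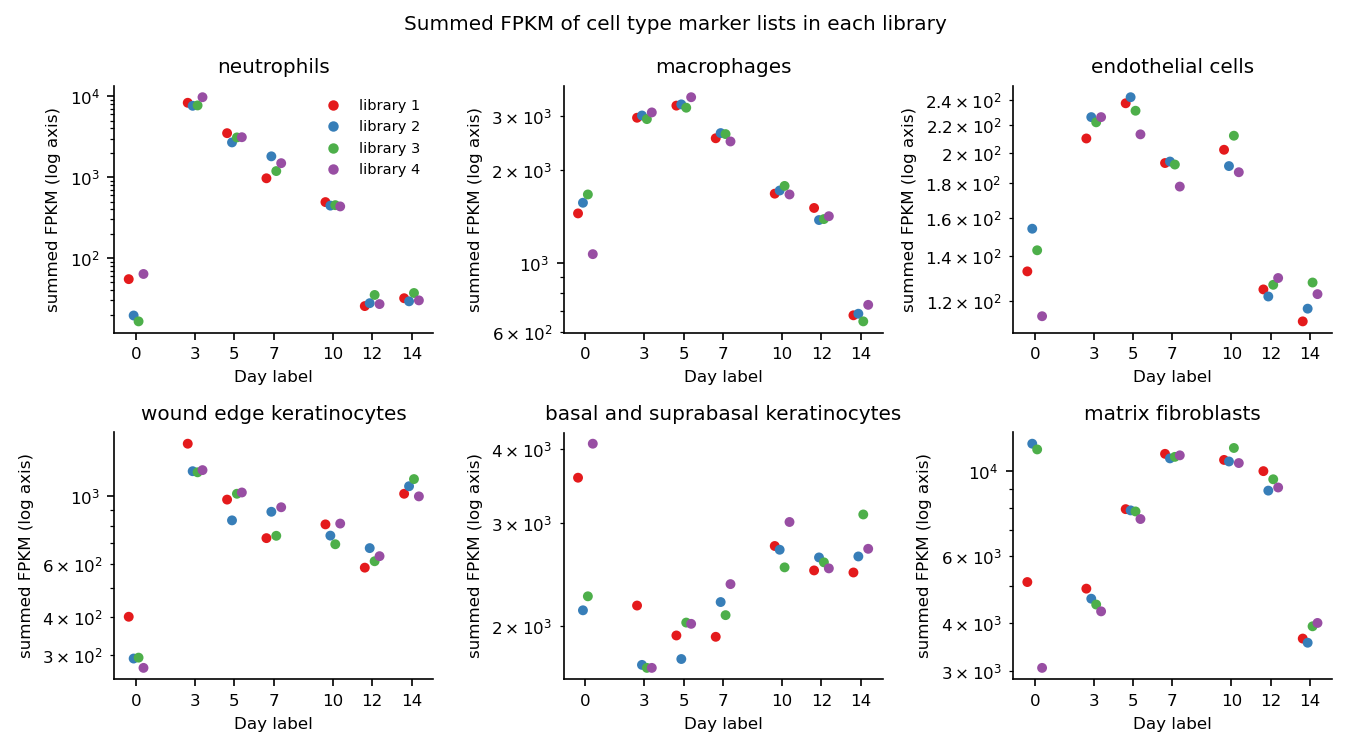
Summed FPKM (vertical axes, log scale) of 6 lists of cell type markers in each of the 28 libraries against the day label, coloured by the replicate number, which does not link libraries of different days. Neutrophil markers go from 16.5 to 63.6 on Day0 to 7630 to 9740 on Day3. Day0 libraries 1 and 4 lie apart from libraries 2 and 3 in every list but wound edge keratinocytes (402 and 273 against 293 and 295).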

How the data were processed

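The deposited files held, per gene and library, raw counts and FPKM, made by the authors from skin RNA (TRIzol extraction, VAHTS Universal V6 libraries). The submitters' processing notes name fastp, R 3.2.0 and the build mm10, and the aligner and the counting tool are not given in the sources used here. FPKM, as deposited, equalled the count divided by gene length and library total within 1% for all 17194 genes checked. FPKM was used for levels and counts for tests.

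Counts were filtered on the day groups (filterByExpr), scaled by TMM and fitted in 1 model of 7 day means over 28 libraries with edgeR 4.0.16 (R 4.3.3; quasi-likelihood F test, two-sided, 21 residual degrees of freedom), with Benjamini-Hochberg adjustment over all 18107 genes and calls at 0.05. Log2 ratios of 2 genes, with 0.5 added to each count, were compared by exact permutation of 4 against 4 libraries, adjusted over 6 tests. The number of libraries limits their precision, and no interval for counting error is given. Alternatives were other scalings, filters and limits, DESeq2 1.42.0, limma 3.58.1 on log2(FPKM + 1) or log2(FPKM + 0.1), Xist as a covariate, a replicate block, the 8 libraries of a comparison alone, and each library left out. The fits were tested on data simulated with the same spread on every day, so that test does not cover the wider spread of Day0.

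The members, the pathway list and the marker lists were chosen with earlier results of these data known. Named besides the 7 genes were, per part of the pathway list and for Day3, Day7 and Day14, the called genes with the largest increase and decrease, and for each member the 3 most correlated genes; F2, Plg and other genes that did not pass the filter, F2rl1, and S100a10 in a caption, were named after their values were seen. The design text mentions more repeats than the 4 libraries a day analysed here. Replicates of a day differed by more than sampling noise in every pair (median chi-square per gene at least 1.47, 0.455 being the value noise alone gives).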

Additional observations from a re-analysis of the deposited data

Results flagged for a closer look

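By Dixon's test at the 95% level for groups of 4, the single library farthest from the rest stood apart in 2 of 49 groups (7 genes on 7 days), where chance gives about 2.4. The log2 CPM (count scaled to the library total) of Plaur in Day10 library 3 was 5.32, against 5.04 to 5.08 in the others of that day. The log2 CPM of Serpine2 in Day7 library 2 was 6.63, against 6.55 to 6.57 in the others.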

How the results depend on the processing

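There were 46 settings, some of which applied only to the ratios or to the study's limits. For the 94 single-gene results, the settings that applied gave 1977 values. Of these, 1846 had the same direction and side of the threshold, 55 lost the call, 23 gained it and 53 changed sign. The number of the 7 genes called against Day0 ran from 4 to 7 over all settings and days.

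With no composition scaling the log2 fold changes against Day0 were 0.025 for Plau on Day10, 0.036 for F3 on Day12, 0.061 for Plaur and 0.091 for Plat on Day14, and against Day10 they were 0.069 for Serpinb2 and 0.047 for Thbd on Day12. With limma on log2(FPKM + 1) these 6 values were 0.051, 0.050, 0.13, 0.14, 0.065 and 0.044, with and without a minimum FPKM, and on log2(FPKM + 0.1) they were 0.055, 0.052, 0.16, 0.15, 0.068 and 0.047. With upper quartile factors Plau on Day10 was 0.0056 and Plat on Day14 0.0045. With Xist as covariate Thbd on Day12 against Day10 was 0.0071. With the 8 libraries alone, Plaur and Plat on Day14 were 0.0014 and 0.036, and 6 rather than 3 genes changed from Day7 to Day10. None of the values in this paragraph that changed sign passed the threshold, and the cause was not tested.

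Counts past the study's limits changed as follows. On Day10 they were 2 with upper quartile factors, no composition scaling or any of the 3 limma settings. With a limit of 1 in place of 1.5 they were 3 on Day3, 2 on Day5, 3 on Day10 and 1 on Day12. Without Day0 libraries 1 and 4, an alternative chosen after seeing the data, they were 2 on Day3 and 1 on Day7, F3 on Day3 was -0.031 (adjusted p = 0.73) and Plaur on Day14 0.58 (adjusted p = 4.3e-05). Without Day0 libraries 2 and 3 the count was 2 on Day5, and the values were 0.055 for Thbd on Day7, 0.28 for Plau (adjusted p = 0.0036) and 0.024 for F3 on Day10, 0.015 for Plau and 0.11 for F3 on Day12 and 0.52 for Plat on Day14 (adjusted p = 2.5e-06).

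With each library left out in turn, the counts past the study's limits ran from 1 to 2 on Day3, on Day7 and on Day10. Plau on Day10 ran from -0.14 to 0.10, Plaur on Day14 from -0.21 to 0.29, Plat on Day14 from -0.11 to 0.17, Serpinb2 from Day10 to Day12 from -0.083 to 0.046, Plau from Day3 to Day5 from -0.051 to 0.069 and Serpine2 from Day12 to Day14 from -0.0068 to 0.064. The log2 ratio of Plau to Plat on Day3 ran from -0.25 to -0.13.

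The replicate numbers did not pair the libraries: of 84 same-numbered pairs the correlation of deviations from the day means ran from -0.076 to 0.18, with 1 above 0.1, and 8 of 28 libraries correlated best, on average over the other days, with their own number. With the replicate block in the edgeR fit each count of members called stayed as it was. In the ratios, 4 pairs allow no sign-flip p below 0.125, and with the block the adjusted p was 0.188 for Plau to Plat on Day7 (-1.19) and Day14 (-0.64) and for F3 to Thbd on Day3 (-0.84) and Day7 (0.45).

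Low pathway genes had smaller log2 differences with limma on log2(FPKM + 1) and no minimum FPKM, where 1 is added to values that are themselves low: Serpinf2 on Day3 was at -0.27, Serpind1 on Day3 -0.18, F2rl3 on Day3 and Day7 0.28 and 0.47, F2rl2 on Day3, Day7 and Day14 -0.51, -0.60 and -0.81, Serpini1 on Day14 0.31 and F7 on Day14 1.68. The depth, at least 251 counts in any library for each of the 7 genes, stood well above that of Serpinf2, Serpind1 and F2rl3, which had at most 74 counts on the days compared.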
